A study of Mus musculus with 31 samples.

Results

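Claudins are the membrane proteins that form the strands of tight junctions, and the claudins that a stretch of nephron makes set which ions and how much water pass between its cells. Some form pores, such as the cation- and water-permeable Cldn2 of the proximal tubule, and others mainly seal the junction. This account follows the 10 claudin genes Cldn1, Cldn2, Cldn3, Cldn4, Cldn5, Cldn6, Cldn7, Cldn8, Cldn10 and Cldn11, chosen by symbol, out of 25 claudin genes and 23509 genes counted. All 10 passed the filter on low counts that left 15185 genes for testing, and so did 9 of the 15 other claudin genes.

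Kidney RNA was sequenced from 31 mice in 3 groups. A group of 12 Pcy/CD1 mice received PBS (Pcy PBS), and 14 Pcy/CD1 mice received RGLS4326, an oligonucleotide inhibitor of miR-17, at 25 mg/kg by monthly subcutaneous injection (Pcy RGLS4326). Treatment of both ran from 5 to 30 weeks of age. The remaining 5 were untreated male wild-type CD1 mice of the same age, which had no PBS injections, so genotype and injection cannot be told apart in comparisons with them. Pcy is a recessive cyst-forming allele on the CD1 background. By the labels and the study's account of dosing, PBS was injected weekly and RGLS4326 monthly, although the protocol text can be read as monthly for both, so agent and injection frequency cannot be told apart between these groups. Whole-kidney RNA mixes all cell types, so fewer cells of a type and less RNA per cell cannot be told apart.

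Between 14892524 and 27459962 counts fell on genes in each kidney, and the 10 claudins took 0.0849% to 0.117% of them. All 10 proximal tubule, 5 thick ascending limb and 10 principal cell markers passed the filter on low counts, as a kidney label requires. The kidney of RGLS4326 mouse 9 stood apart from the other treated kidneys, with a summed proximal tubule marker level inside the wild-type range (the group maximum, 22859 CPM, against a treated median of 11528 CPM and a lowest wild-type sum of 22567 CPM). CPM are counts per 1000000 library counts, after TMM scaling of the library sizes. The claudin differences from PBS that it moved across a threshold are given with and without it.

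By GENCODE vM21 on GRCm38, all 10 are protein-coding genes. Cldn1 lies at chr16:26356642-26371841, Cldn5 at chr16:18776847-18778262 and Cldn8 at chr16:88560828-88563183. Cldn3 lies at chr5:134986214-134987472 beside Cldn4 at chr5:134945119-134946934. Cldn2 lies at chrX:139800828-139811386, Cldn6 at chr17:23679249-23682446, Cldn7 at chr11:69964779-69967885, Cldn10 at chr14:118787908-118875489 and Cldn11 at chr3:31149920-31164324.

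The oligonucleotide is directed at the seed of miR-17, so matches to this seed among the claudins are shown first. The mature mouse miR-17-5p (RefSeq, GRCm38.p6, chr14:115043684-115043706, plus strand) carries bases 2 to 8, in capitals, as its seed.
mmu-miR-17-5p: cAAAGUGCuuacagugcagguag
Its reverse complement GCACTTT was searched in the longest annotated 3′ UTR of each gene (GENCODE vM21). Of the 10 members, 2 held 1 match each, Cldn1 and Cldn5, where 11.8% of 21020 genes held at least 1. In Cldn1 the match lay at chr16:26358272-26358278 on the minus strand, in exon 4 of 4, starting at base 760 of a 2396-base 3′ UTR. In Cldn5, a gene with 1 exon, it lay at chr16:18777844-18777850 on the plus strand, starting at base 192 of 610. The matching bases are in capitals within 30 bases of messenger sequence.
Cldn1 match: ggacggtctttGCACTTTggtctggagctg
Cldn5 match: acagactacagGCACTTTtaagaacttgac
None of the 10 had the longer match with an A after the seed, which 3.50% of genes had. A match is a description of letters and not a measured binding site.

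In whole wild-type kidney the members differed widely in level. Per kb of exon, which allows genes to be compared, Cldn2 led the wild-type kidneys at 209 ± 9.53 CPM per kb (SD, n = 5), followed by Cldn10, which forms ion-selective pores in the proximal tubule and the thick ascending limb, at 88.9 ± 4.91. Cldn8, a sealing claudin of the distal nephron and collecting duct, came next at 20.8 ± 4.43. These 3 did not overlap with each other or with the genes after them. Cldn4 (10.3 ± 2.40), Cldn7 (6.87 ± 0.517), Cldn3 (6.81 ± 1.09), Cldn5 (5.44 ± 0.512) and Cldn1 (4.69 ± 0.994) followed, each overlapping with its neighbour in the order over the 5 mice. Cldn6, a claudin of embryonic epithelia, had 1.60 ± 0.490 and Cldn11, best known from myelin and Sertoli cells, had 1.53 ± 2.06 CPM per kb.

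The order changed in the Pcy PBS kidneys. Cldn2 at 163 ± 20.9 CPM per kb (n = 12) and Cldn10 at 61.3 ± 9.59 still led, but Cldn4 at 45.5 ± 15.8 now overlapped with Cldn10. Cldn3 (25.5 ± 9.16), Cldn8 (25.4 ± 1.90) and Cldn7 (21.9 ± 6.06) could not be ordered beyond their spread. In the Pcy RGLS4326 kidneys (n = 14) Cldn4 stood at 32.0 ± 10.1 CPM per kb and no longer overlapped with Cldn10 at 67.5 ± 7.89. As a share of the summed CPM per kb of the 10 members, Cldn2 made up 58.7% ± 2.28 in wild type, 44.0% ± 5.47 with PBS and 49.5% ± 5.14 with RGLS4326. The share of Cldn4 was 2.90% ± 0.679, 12.2% ± 3.85 and 8.98% ± 2.83 in the same order.

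**Figure D1:**
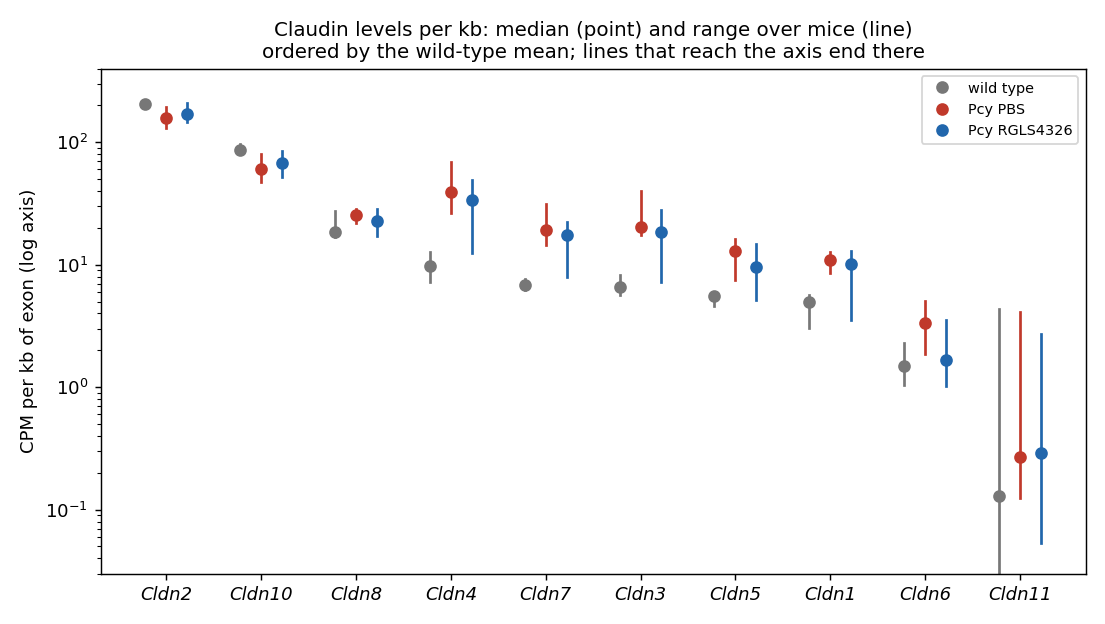
Claudin levels in CPM per kb of exon on a log axis, ordered by the wild-type mean, as the median (point) and range over mice (line) in 5 wild-type, 12 Pcy PBS and 14 Pcy RGLS4326 kidneys. Cldn2 and Cldn10 lead in every group, and the Cldn4 line of the Pcy PBS group reaches that of Cldn10; the wild-type Cldn11 line runs down to the axis because its lowest mouse had no counts.

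PBS-treated Pcy/CD1 kidneys were compared with wild type to see which claudins differ in the cystic kidney. Cldn4, Cldn3 and Cldn7 had the largest increases, Cldn1, Cldn5, Cldn6 and, by a small margin, Cldn8 also rose, and both leading claudins of the proximal tubule, Cldn2 and Cldn10, were lower. At an adjusted p under 0.05 (edgeR quasi-likelihood test, Benjamini-Hochberg over all genes), 7 members rose and 2 fell, beside 37.7% of all 15185 genes that rose and 36.6% that fell. With the added requirement of an absolute log2 fold change over 0.5, 6 rose and 1 fell, beside 24.6% and 17.8% of all genes. The median log2 fold change of the 10 members was 1.15 and that of all genes 0.01.

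Cldn4, which is both a barrier claudin and, with Cldn8, part of a chloride path in the collecting duct, had the largest fold among the members. Its wild-type kidneys held 13.2, 23.05, 17.9, 16.3 and 23.2 CPM, and the 12 PBS kidneys ranged from 48.0 through a median of 71.3 to 126 CPM. All 12 PBS kidneys lay above all 5 wild-type kidneys. The log2 fold change was 2.14 (SE 0.276, adjusted p = 9.17e-08).

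Cldn3, a sealing claudin of the distal nephron and collecting duct, had 10.4, 7.13, 9.58, 8.23 and 7.53 CPM in wild type and 22.1 to 50.2 CPM (median 25.6) with PBS. Cldn7, a mostly basolateral claudin of the distal nephron and collecting duct, had 13.4, 13.1, 14.9, 12.1 and 13.4 CPM in wild type and 28.1 to 61.4 CPM (median 37.2) with PBS. Neither gene's groups overlapped. Cldn3 rose by 1.91 on the log2 scale (SE 0.276, adjusted p = 5.17e-07) and Cldn7 by 1.67 (SE 0.209, adjusted p = 6.12e-08). In each of these 3 genes the PBS kidneys were spread widely, with coefficients of variation of 34.7% for Cldn4, 35.9% for Cldn3 and 27.7% for Cldn7, against 7.48% for Cldn8.

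Cldn8 is also a collecting duct gene, yet its levels were close between groups. Wild-type kidneys had 43.9, 54.9, 40.05, 41.5 and 64.4 CPM and PBS kidneys 52.0 to 66.6 CPM (median 60.03). Only 2 of 12 PBS kidneys exceeded the highest wild-type kidney. The log2 fold change of 0.29 (SE 0.112, adjusted p = 0.0206) passed the adjusted p but not the size threshold. It did not pass without wild-type mouse 1 (adjusted p = 0.0603), 3 (0.0842) or 4 (0.0764).

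Cldn1, a sealing claudin found in the parietal cells of Bowman's capsule, had 14.6, 23.1, 24.3, 27.5 and 24.0 CPM in wild type and 41.3 to 61.8 CPM (median 52.5) with PBS. Cldn5, the claudin of endothelial cells, had 7.84, 7.60, 7.99, 8.54 and 6.56 CPM in wild type and 10.5 to 23.0 CPM (median 18.3) with PBS. In both genes all 12 PBS kidneys were above the wild-type range. The log2 fold changes were 1.21 for Cldn1 (SE 0.175, adjusted p = 5.52e-07) and 1.21 for Cldn5 (SE 0.180, adjusted p = 8.28e-07).

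Cldn6 was low in every group, with 3.95, 3.21, 2.54, 2.24 and 1.81 CPM in wild type and 3.24 to 8.64 CPM (median 5.76) with PBS. Its groups overlapped, with 10 of 12 PBS kidneys above the highest wild-type kidney. Cldn6 rose by 1.09 on the log2 scale (SE 0.249, adjusted p = 2.81e-04).

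Cldn2 and Cldn10 went the other way. Cldn2 had 682, 652, 730, 721 and 686 CPM in wild type and 435 to 646 CPM (median 522) with PBS, and Cldn10 had 252, 231, 220, 224 and 224 CPM in wild type and 122 to 206 CPM (median 156) with PBS. All 12 PBS kidneys lay below all wild-type kidneys for both genes. Cldn2 fell by 0.36 on the log2 scale (SE 0.0848, adjusted p = 3.57e-04), under the size threshold, and Cldn10 fell by 0.54 (SE 0.0929, adjusted p = 7.25e-06). Without wild-type mouse 1, which had the highest Cldn10 level, the change of Cldn10 was −0.50, just short of the size threshold. The Cldn10 row adds up transcripts from 2 annotated start regions that serve different nephron segments, and gene counts do not separate them.

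Cldn11 was uneven between mice in all 3 groups. Wild-type mice 2 and 5 had 8.14 and 5.84 CPM where mice 1, 3 and 4 had 0.00, 0.12 and 0.24. PBS mice 6 and 11 had 7.62 and 3.48 CPM where the PBS median was 0.51, and RGLS4326 mice 9 and 10 had 5.11 and 4.97 where the treated median was 0.55. The high mice were not confined to a group. No difference was detected, with a log2 fold change of −1.04 for PBS against wild type (SE 0.857, adjusted p = 0.274) that was −0.14 without wild-type mouse 2 and −0.61 without wild-type mouse 5, and −2.81, 3.62 and −2.08 within the 3 series of mice described below.

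**Figure D2:**
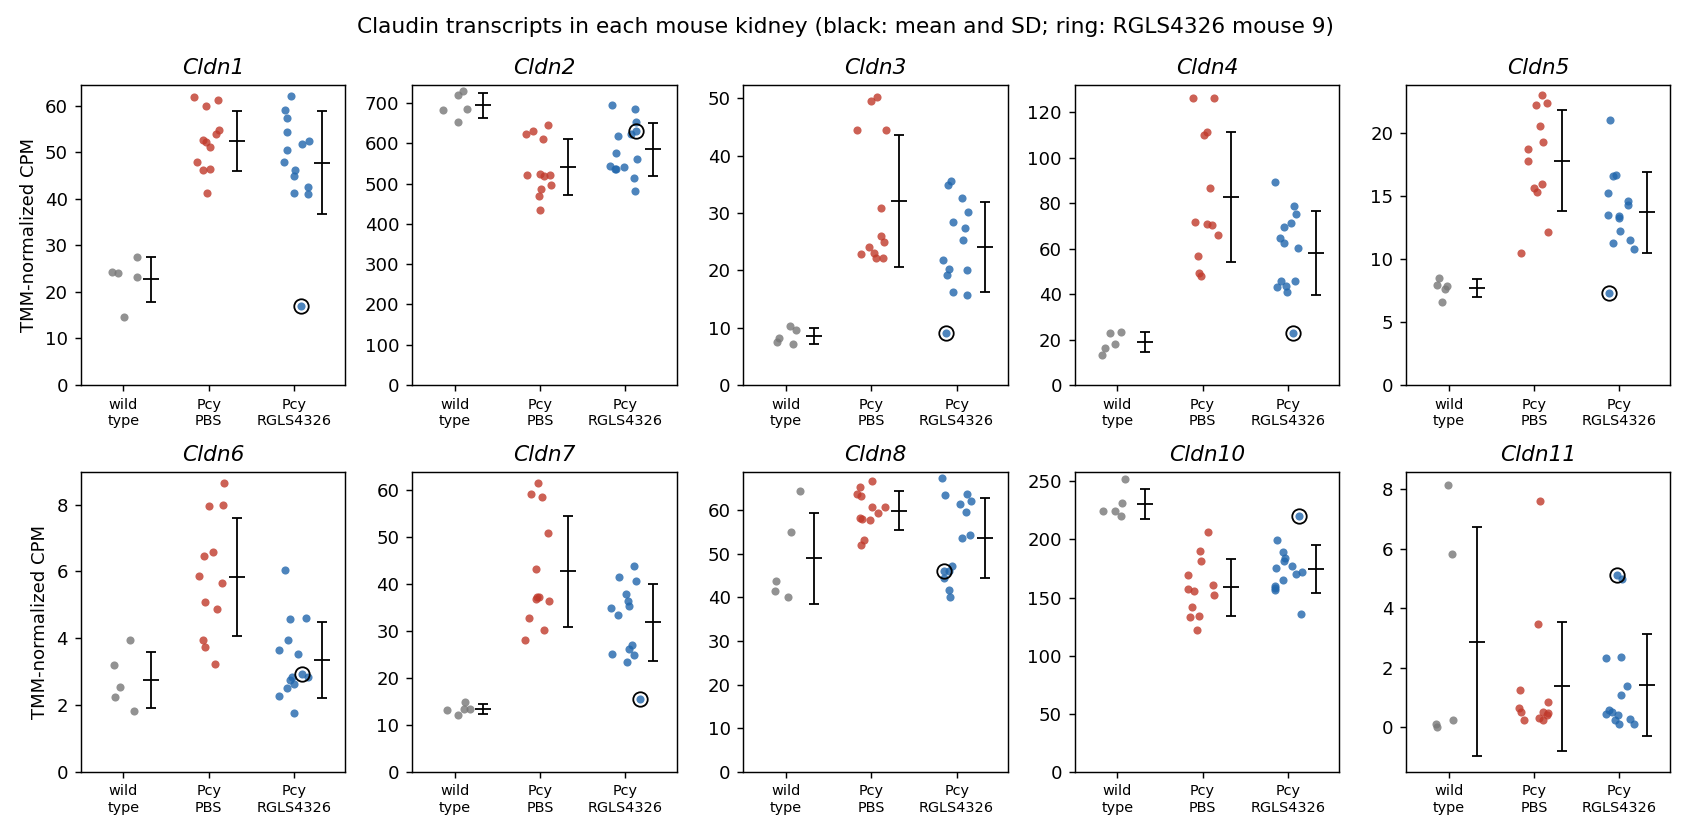
TMM-normalized CPM of the 10 claudins in each kidney (points) of 5 wild-type, 12 Pcy PBS and 14 Pcy RGLS4326 mice, with the mean and SD in black, RGLS4326 mouse 9 ringed, and 1 linear axis per gene. For Cldn1, Cldn3, Cldn4, Cldn5 and Cldn7 all PBS points lie above the wild-type points, for Cldn2 and Cldn10 all lie below, and Cldn11 has isolated high mice in each group.

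File names carry library index numbers that restart, which divides the mice into 3 series, with 4 PBS mice in each, 4, 5 and 5 RGLS4326 mice and 2, 2 and 1 wild-type mice. Whether the series are sequencing runs is not given in the sources used here. Within series 1, 2 and 3 alone, the PBS against wild-type log2 fold changes were 2.02, 2.26 and 2.02 for Cldn4, 1.78, 1.75 and 2.29 for Cldn3, 1.52, 1.65 and 1.85 for Cldn7, and −0.57, −0.41 and −0.58 for Cldn10. The 8 values of series 1 and 2 each had an adjusted p under 0.05. Series 3 holds 1 wild-type mouse, which the fit assumes to vary like the other mice, so no test of series 3 is read here. Both wild-type mice of series 2, mice 3 and 4, have the closest counts of the 10 wild-type pairs (mean chi-square per gene 2.69, against 16.05 for the next pair), and whether they are separate animals was not tested beyond the labels. Cldn6 gave 0.59, 1.25 and 1.85, of which the first did not pass (adjusted p = 0.207). Cldn8 gave 0.26, 0.61 and −0.10, and of series 1 and 2 passed in the latter (adjusted p = 0.0128), and Cldn2 gave −0.35 in each and did not pass in series 1 or 2.

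Markers of whole nephron segments moved in the same direction as many of these claudins. All 10 proximal tubule markers fell, beside 36.6% of all genes, with a median log2 fold change of −1.23, among them the organic anion transporter gene Slc22a6 (−1.25, adjusted p = 6.12e-09) and Slc13a3 (−1.86, adjusted p = 2.13e-08). Of 10 principal cell markers, 9 rose and 1 fell, beside 37.7% and 36.6% of all genes, with a median of 1.46, including the vasopressin receptor gene Avpr2 (1.92, adjusted p = 3.96e-11) and Hsd11b2 (1.55, adjusted p = 2.56e-09). Of 8 endothelial markers 3 fell and none rose, with a median of −0.27 and Kdr at −1.05 (adjusted p = 2.26e-04). The summed level of the 10 principal cell markers ran from 665 to 1097 CPM in wild type, 1705 to 3422 CPM with PBS and 1055 to 2385 CPM with RGLS4326. That of the 8 endothelial markers ran from 330 to 455, 237 to 437 and 229 to 493 CPM. Their part in the claudin differences was compared only as follows.

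For each claudin with a known segment, the mean log2(CPM + 1) of that segment's markers was subtracted in each mouse, and the difference was compared between groups by permuting mice (exact where wild type was involved, 100000 permutations otherwise, two-sided, 24 tests adjusted together). Cldn2 minus proximal tubule markers was 0.97 higher with PBS than in wild type (95% interval 0.823 to 1.12, exact permutation test, adjusted p = 0.00138). Cldn2 itself was 0.37 lower and the markers were 1.34 lower, so Cldn2 fell less than the markers did. Cldn10 minus the same markers was 0.79 higher (0.632 to 0.957, exact permutation test, adjusted p = 0.00138). Within series 1 to 3 the difference was 0.99, 0.89 and 1.02 for Cldn2 and 0.76, 0.82 and 0.79 for Cldn10. Set against thick ascending limb markers, Cldn10 was 0.18 lower (interval −0.315 to −0.053, exact permutation test, adjusted p = 0.0465), which was −0.15, −0.01 and −0.47 within series 1 to 3, the last with 1 wild-type mouse, and 0.13 higher when the median over the markers replaced their mean.

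The collecting duct claudins parted from each other on this scale. Cldn4 minus principal cell markers was 0.66 higher with PBS (0.363 to 0.950, exact permutation test, adjusted p = 0.00222), and 0.80, 0.51 and 0.68 higher within the series. Cldn8 minus the same markers was 1.07 lower (−1.20 to −0.946, exact permutation test, adjusted p = 0.00138), and 0.87, 1.03 and 1.35 lower within the series. Cldn8 thus differed little while principal cell markers rose by 1.38. For Cldn3 the difference was 0.35 (−0.109 to 0.804, exact permutation test, adjusted p = 0.173) and for Cldn7 0.18 (−0.144 to 0.496, exact permutation test, adjusted p = 0.345), with the sign in series 2 opposite to that in the others. With the median over the markers these became 0.61 and 0.44, both with an adjusted p of 0.0030 (exact permutation test).

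Cldn5 stood furthest from its reference list. Cldn5 minus the endothelial markers was 1.46 higher with PBS (1.11 to 1.80, exact permutation test, adjusted p = 0.00138) and 1.12, 1.65 and 1.65 higher within the series, with Cldn5 1.08 higher and the markers 0.37 lower. Cldn5 rose while no endothelial marker rose, and no cell source of the counts was measured.

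**Figure D3:**
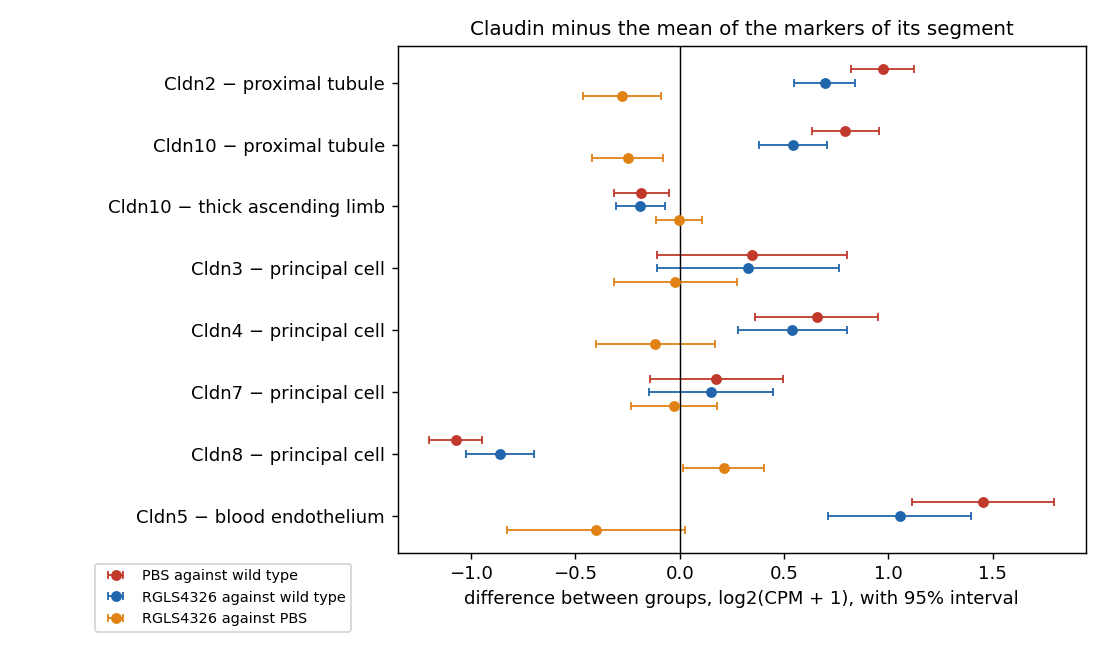
Differences between groups in the claudin level minus the mean level of markers of the named segment, on the log2(CPM + 1) scale per mouse, as the mean difference (point) with its 95% interval (line) for 3 comparisons. Cldn2 and Cldn10 lie to the right of 0 against proximal tubule markers and Cldn5 against endothelial markers in both comparisons with wild type, and in the same comparisons Cldn8 lies to the left of 0 against principal cell markers.

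RGLS4326-treated kidneys were compared with PBS-treated kidneys to see whether the treatment moved the claudins of the Pcy kidney. This comparison shares the PBS mice with the one above. The members with detected differences were lower with treatment. At an adjusted p under 0.05, 4 members fell and none rose, Cldn4, Cldn5, Cldn6 and Cldn7, beside 6.66% of all genes that fell and 9.15% that rose. With the size threshold, 2 fell, Cldn4 and Cldn6, beside 1.22% lower and 0.935% higher. The median log2 fold change was −0.27 over the members and −0.00 over all genes.

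Cldn6 had the largest fold of the members under treatment. The 14 treated kidneys ranged from 1.76 through a median of 2.87 to 6.05 CPM, against 3.24, 5.76 and 8.64 CPM with PBS. In 8 of 14 treated kidneys the level was below the lowest PBS kidney, and in 13 of 14 below the PBS median. Cldn6 fell by 0.80 on the log2 scale (SE 0.170, adjusted p = 0.00828), and leaving out any 1 of the 26 Pcy/CD1 mice left the adjusted p between 0.00225 and 0.0231 (−0.79 and 0.0120 without RGLS4326 mouse 9). Within series 1, 2 and 3 alone the log2 fold change was −0.68, −1.04 and −0.70, with no gene called in any series alone.

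Cldn4 had 22.8 to 89.0 CPM (median 61.4) with RGLS4326 against 48.0 to 126 CPM (median 71.3) with PBS. The groups overlapped widely, with 6 of 14 treated kidneys below the lowest PBS kidney. The log2 fold change was −0.51 (SE 0.176, adjusted p = 0.0468), and −0.11, −0.69 and −0.69 within the series. The adjusted p was 0.0501 with the index series as a covariate, 0.0575 with no filter on low counts, 0.0625 with the 2 groups alone and 0.107 with the replicate block. It lost an adjusted p under 0.05 when any of 13 of the 26 mice was left out, PBS mice 2, 3, 5, 9, 10 and 11 and RGLS4326 mice 3, 6, 7, 8, 9, 10 and 13, with values up to 0.103. Without RGLS4326 mouse 9 the log2 fold change was −0.44 (adjusted p = 0.0688).

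Cldn7 had 15.5 to 43.8 CPM (median 34.1) and Cldn5 7.31 to 21.1 CPM (median 13.5) with treatment, where PBS kidneys had medians of 37.2 and 18.3 CPM. For Cldn5, 13 of 14 treated kidneys were below the PBS median, but 1 was below the lowest PBS kidney. Cldn7 fell by 0.42 (SE 0.137, adjusted p = 0.0392) and Cldn5 fell by 0.38 (SE 0.122, adjusted p = 0.0383) on the log2 scale. Both lost an adjusted p under 0.05 without any of PBS mice 2, 3, 5, 9 and 10 or RGLS4326 mice 3, 6, 8, 9, 10 and 13, with values up to 0.0853 and 0.0787. Without RGLS4326 mouse 9 Cldn7 was at −0.36 (adjusted p = 0.0589) and Cldn5 at −0.32 (adjusted p = 0.0588), and with the 2 groups alone the adjusted p was 0.0578 and 0.0555. Within the series Cldn7 gave −0.13, −0.58 and −0.52 and Cldn5 −0.21, −0.62 and −0.28.

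Cldn3 differed by about as much as Cldn7 but did not pass, with 9.05 to 35.6 CPM (median 23.5) under treatment and a log2 fold change of −0.42 (SE 0.176, adjusted p = 0.0895). Cldn1 had 17.02 to 62.1 CPM (median 49.2) and a log2 fold change of −0.13 (SE 0.119, adjusted p = 0.414), which was −0.0637 without RGLS4326 mouse 9 and again did not pass. Its lowest value, 17.02 CPM, was that of RGLS4326 mouse 9, and the next lowest treated kidney had 41.1 CPM. Of the members with a miR-17 seed match, Cldn5 was lower with the inhibitor (−0.38) and Cldn1, at −0.13, did not pass the test.

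Cldn2 (483 to 696 CPM, median 568), Cldn10 (136 to 220 CPM, median 174) and Cldn8 (40.2 to 67.4 CPM, median 54.0) did not pass in the treated kidneys. Their log2 fold changes were 0.12 (SE 0.0637, adjusted p = 0.185), 0.14 (SE 0.0703, adjusted p = 0.147) and −0.16 (SE 0.0811, adjusted p = 0.151). In 12 of 14 treated kidneys for Cldn2 and 13 of 14 for Cldn10 the level was above the PBS median. Cldn11 gave −0.01 (SE 0.667, adjusted p = 0.991).

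Relative to their segment markers, Cldn2 was 0.28 lower with RGLS4326 than with PBS (interval −0.464 to −0.090, permutation test, adjusted p = 0.0125) and Cldn10 was 0.25 lower against proximal tubule markers (−0.421 to −0.078, permutation test, adjusted p = 0.0153). The markers were 0.39 higher while Cldn2 was 0.12 higher. Without RGLS4326 mouse 9 the differences were −0.22 and −0.21 (permutation test, adjusted p = 0.0223 and 0.0311), and within series 1 to 3 they were −0.15, −0.31 and −0.35 for Cldn2 and −0.16, −0.24 and −0.32 for Cldn10. For Cldn3, Cldn4 and Cldn7 against principal cell markers the differences were −0.02 (−0.315 to 0.273), −0.12 (−0.401 to 0.168) and −0.03 (−0.235 to 0.181). None passed, and the sign varied between the series, with 0.0422, −0.0820 and 0.00882 for Cldn3, 0.0792, −0.25 and −0.15 for Cldn4 and 0.0301, −0.11 and 0.0141 for Cldn7 in series 1 to 3. Of the proximal tubule markers 5 of 10 rose with treatment and none fell, with a median of 0.36, beside 9.15% of all genes that rose and 6.66% that fell. Principal cell markers themselves were lower with treatment, 7 of 10 at an adjusted p under 0.05 with a median of −0.37, among them Scnn1b (−0.41, adjusted p = 0.00989) and the water channel gene Aqp3 (−0.47, adjusted p = 0.0105). Cldn8 minus the same markers was 0.21 higher (0.018 to 0.405, permutation test, adjusted p = 0.0772), and Cldn5 minus endothelial markers was 0.40 lower (−0.827 to 0.028, permutation test, adjusted p = 0.115).

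Treated Pcy/CD1 kidneys were also set against wild type. At an adjusted p under 0.05, 5 members were higher and 2 lower, beside 32.5% and 32.4% of all genes, and with the size threshold 5 were higher and none lower, beside 20.3% and 11.3%. The higher ones were Cldn4 (1.63, SE 0.266, adjusted p = 7.53e-06), Cldn3 (1.49, SE 0.268, adjusted p = 2.63e-05), Cldn7 (1.25, SE 0.203, adjusted p = 7.14e-06), Cldn1 (1.07, SE 0.172, adjusted p = 6.15e-06) and Cldn5 (0.83, SE 0.176, adjusted p = 1.70e-04). In each of Cldn1, Cldn3, Cldn4 and Cldn5, 13 of 14 treated kidneys exceeded the highest wild-type kidney, and in Cldn7 all 14 did. The exception was RGLS4326 mouse 9 each time, at 17.02, 9.05, 22.8 and 7.31 CPM, inside the wild-type ranges. Cldn10 was lower by 0.40 (SE 0.0911, adjusted p = 4.05e-04) and Cldn2 by 0.25 (SE 0.0832, adjusted p = 0.0112), with 14 and 11 of 14 treated kidneys below the wild-type range on the TMM scale. Cldn6 at 0.28 (SE 0.242, adjusted p = 0.305) and Cldn8 at 0.13 (SE 0.109, adjusted p = 0.290) did not pass, and nor did Cldn11 at −1.05 (SE 0.841, adjusted p = 0.275). In series 2 alone, with 2 wild-type mice, no member passed, while the log2 fold changes were 1.57 for Cldn4, 1.21 for Cldn3, 1.07 for Cldn7, 0.72 for Cldn1 and 0.55 for Cldn5.

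**Figure D4:**
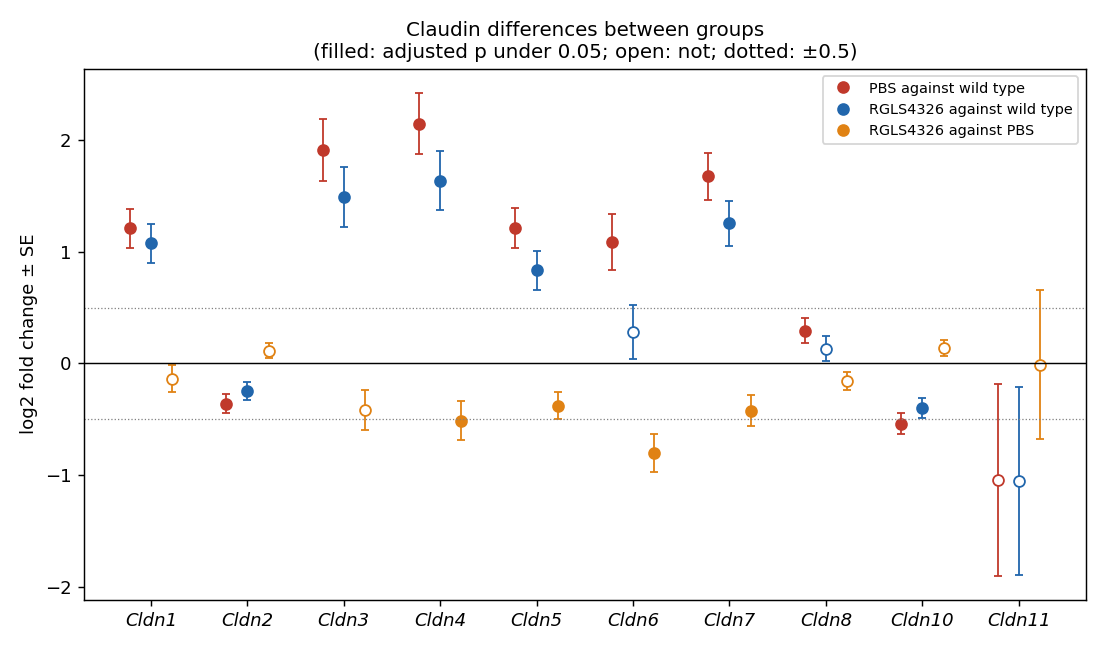
Fitted log2 fold change ± SE of the 10 claudins in 3 comparisons (edgeR), with filled points at an adjusted p under 0.05, open points otherwise, and dotted lines at ±0.5. Both comparisons with wild type place Cldn4, Cldn3 and Cldn7 highest and Cldn2 and Cldn10 below 0, and among the RGLS4326 against PBS points Cldn6 is the lowest at −0.80.

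Within the Pcy/CD1 kidneys Cldn3, Cldn4 and Cldn7 varied together. Over 26 mice, with the mean of each treatment group removed from log2(CPM + 1), 29 of 45 pairs passed an adjusted p under 0.05 for Pearson's r (100000 permutations within groups), 15 of them positive and 14 negative. The smallest absolute r among these 29 was 0.460, which 28.6% of all pairs of the 15185 genes reached, against 64.4% of the claudin pairs. Cldn4 and Cldn7 had r = 0.976 and Spearman's rho = 0.954, Cldn3 and Cldn7 r = 0.965 and rho = 0.924, and Cldn3 and Cldn4 r = 0.952 and rho = 0.912, each with a permutation p of 1e-05, the smallest these permutations can give (adjusted p = 5e-05 for r and 5.62e-05 for rho). Without the 2 mice farthest from the median the 3 values of r were 0.964, 0.949 and 0.927. Within series 1 to 3 they were at least 0.951. Kidneys high in 1 of these genes were also high in the other two.

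The proximal tubule claudins formed a second set. Cldn2 and Cldn10 had r = 0.758 (rho = 0.813, permutation p = 3e-05 and 2e-05, adjusted p = 1.35e-04 and 9e-05), and r = 0.798 without the 2 farthest mice. Cldn7 and Cldn10 varied inversely, with r = −0.803 (rho = −0.833, permutation p = 1e-05 for both, adjusted p = 5e-05 and 5.62e-05) and r = −0.751 without the 2 farthest mice, and so did Cldn2 and Cldn4 with r = −0.714 (rho = −0.749, permutation p = 1e-04 and 6e-05, adjusted p = 3.09e-04 and 2.45e-04) and r = −0.741. Within the series, r ran from 0.729 to 0.816 for Cldn2 with Cldn10, from −0.877 to −0.691 for Cldn7 with Cldn10 and from −0.858 to −0.593 for Cldn2 with Cldn4. Cldn8 had r between −0.186 and 0.328 with the other 9 members over all 26 mice, with a smallest adjusted p of 0.243 by permutation. Its values differed between the series. Within series 1 they were 0.678 with Cldn4, 0.673 with Cldn7, 0.608 with Cldn3, −0.725 with Cldn2 and −0.654 with Cldn10, and within series 2 and 3 all members together spanned −0.570 to 0.421 and −0.362 to 0.575.

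**Figure D5:**
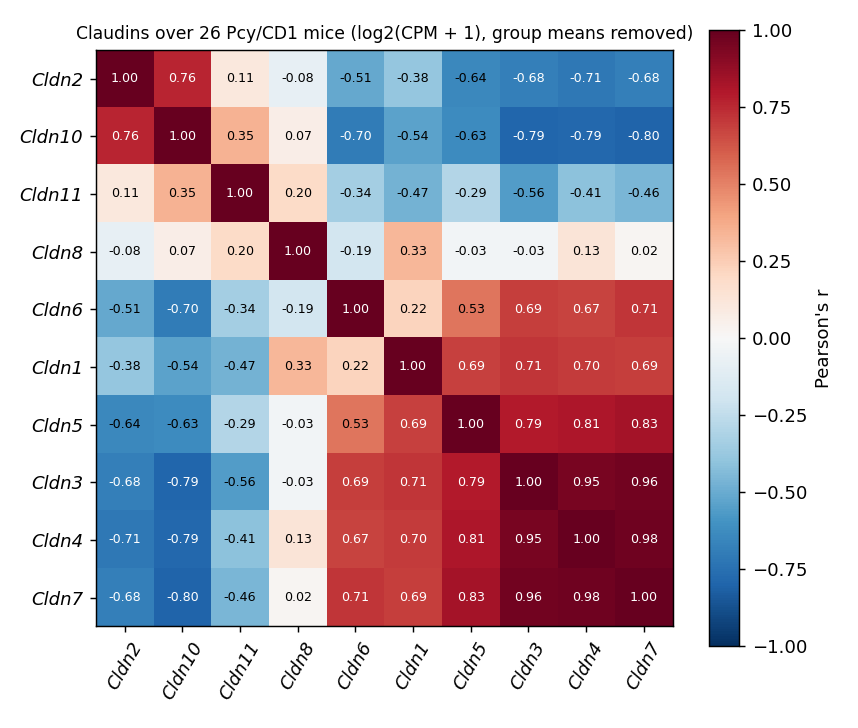
Pearson's r between each pair of the 10 claudins over 26 Pcy/CD1 kidneys, from log2(CPM + 1) with group means removed, on a colour scale from −1 to 1. Cldn3, Cldn4 and Cldn7 form a block at 0.95 to 0.98, Cldn2 and Cldn10 lie opposite to it, and the Cldn8 row stays between −0.19 and 0.33.

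Among 15184 other genes, those most like each member over the same mice were also found, as a description. Cldn4 was closest to Krt18, a keratin of simple epithelia (r = 0.988), and then to Cldn7, and Cldn7 was closest to Cldn4 and then to Krt18 (r = 0.976). Krt18 is also among the injured tubule markers counted below. Cldn3 was closest to Mvp (r = 0.977) and Hn1 (r = 0.973), and Cldn10 to Acad8 (r = 0.918) and Etfa (r = 0.911), nuclear genes of mitochondrial proteins. Cldn2 was closest to Pttg1ip (r = 0.921) and Sult1c2 (r = 0.904), Cldn5 to Crip1 (r = 0.927) and Kdelr3 (r = 0.924), and Cldn6 to Hoxd9 (r = 0.863) and Rnpep (r = 0.862). Cldn1 was closest to St5 (r = 0.938) and Dtx4 (r = 0.925), values that were 0.784 and 0.788 without RGLS4326 mouse 9. Over all 26 mice Cldn8 had the lowest likeness, with Slc35g1 (r = 0.788) and Nsmaf (r = 0.783). Without RGLS4326 mouse 9 these values were 0.778 and 0.773, and another gene was at 0.821 with Cldn8. Cldn11 was closest to Prss35 (r = 0.956) and Npy5r (r = 0.931).

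Because Cldn3, Cldn4 and Cldn7 varied together, the bases before their start sites are shown. Cldn4 (minus strand) and Cldn3 (plus strand) are neighbours on chr5 with start sites 39.3 kb apart, and Cldn7 is on chr11. Each has 250 bases before the RefSeq start site (GRCm38.p6), at chr5:134946935-134947184, chr5:134985964-134986213 and chr11:69964529-69964778, and capitals mark the single match to a searched motif, in Cldn4.
Cldn4: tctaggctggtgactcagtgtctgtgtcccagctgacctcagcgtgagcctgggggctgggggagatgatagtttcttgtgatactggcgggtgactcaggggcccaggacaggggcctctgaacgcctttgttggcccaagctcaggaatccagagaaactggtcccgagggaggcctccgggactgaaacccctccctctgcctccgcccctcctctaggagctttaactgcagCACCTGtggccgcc
Cldn3: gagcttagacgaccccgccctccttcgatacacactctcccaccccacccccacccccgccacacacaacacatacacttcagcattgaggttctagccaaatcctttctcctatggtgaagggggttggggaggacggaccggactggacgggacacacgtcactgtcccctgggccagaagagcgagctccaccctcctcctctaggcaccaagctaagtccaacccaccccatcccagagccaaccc
Cldn7: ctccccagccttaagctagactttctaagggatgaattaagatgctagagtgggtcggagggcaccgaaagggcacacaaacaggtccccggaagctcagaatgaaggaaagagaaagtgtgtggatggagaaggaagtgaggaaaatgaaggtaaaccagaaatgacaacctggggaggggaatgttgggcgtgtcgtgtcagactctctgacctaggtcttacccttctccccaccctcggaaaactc
RefSeq windows from 250 bases before to 50 bases after the start were found for 9 of the 10 members, 11 windows in all. Motifs searched on both strands included an E-box (CACCTG), a grainyhead-type core (AACNNGTT) and a TATA box (TATAAA), and no 2 of the matches found here overlapped. The E-box occurred in 4 member windows, those of Cldn3, Cldn4, Cldn6 and the second Cldn7 start, against 20.2% of 32851 windows of the same length. In Cldn4 the shown E-box begins 14 bases before the start. TATAAA occurred in the window of Cldn2 (13.6% of all windows) and the grainyhead-type core in Cldn5 (4.20%). These are matches of letters only.

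Other claudins and junction genes were read from lists. Of the 9 other claudins that could be tested, 3 rose and 2 fell with PBS against wild type, beside 37.7% and 36.6% of all genes, with a median of 0.08. Cldn19, which together with Cldn16 makes the thick ascending limb permeable to calcium and magnesium, rose by 0.90 (SE 0.106, adjusted p = 2.55e-08), Cldn16 rose by 0.39 (SE 0.140, adjusted p = 0.0146) and Cldn23 rose by 1.47 (SE 0.326, adjusted p = 1.89e-04). Cldn12 fell by 0.91 (SE 0.0932, adjusted p = 4.55e-09) and Cldn25 fell by 0.39 (SE 0.0541, adjusted p = 2.36e-07). Cldn9, Cldn14, Cldn15 and Cldn18 did not pass. With RGLS4326 against PBS Cldn19 alone passed, at −0.28 (SE 0.0739, adjusted p = 0.0205), beside 9.15% of all genes that rose and 6.66% that fell. Treated kidneys against wild type had Cldn19 at 0.63 and Cldn23 at 1.28 among the higher genes and Cldn12 at −0.75, Cldn25 at −0.31 and Cldn9 at −0.70 among the lower ones.

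Of 22 tight junction partners, 13 rose and 7 fell with PBS against wild type, beside 37.7% and 36.6% of all genes, with a median of 0.20. F11r, a junctional adhesion molecule (0.63, adjusted p = 2.41e-09), and the scaffold Tjp3 (1.15, adjusted p = 8.60e-09) rose, and the polarity scaffold Mpp5 (−0.87, adjusted p = 2.53e-08) and the tricellular junction gene Ildr2 (−0.97, adjusted p = 3.89e-08) fell. With treatment, 2 rose and 6 fell, beside 9.15% and 6.66% of all genes, with a median of −0.04. By p the foremost were Mpp5 (0.36, adjusted p = 0.00949), the cingulin gene Cgn (−0.29, adjusted p = 0.0136) and Pard6b (−0.13, adjusted p = 0.0202). None of these passed the size threshold under treatment. Against wild type, treated kidneys had 9 partners higher and 7 lower, beside 32.5% and 32.4% of all genes. The 4 with the smallest p were F11r (0.49), Tjp3 (0.87), Ildr2 (−0.69) and Pard3 (−0.28). Of 11 adherens junction and desmosome genes, 7 rose and 1 fell with PBS, beside 37.7% and 36.6% of all genes, with the smallest p in Epcam (0.93). With treatment 5 fell, beside 6.66% of all genes, with the smallest p in the E-cadherin gene Cdh1 (−0.25, adjusted p = 0.00312).

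Of 8 regulators of claudin genes or proteins, 3 rose and 4 fell with PBS against wild type, near the 37.7% and 36.6% of all genes. The epithelial transcription factor genes Grhl2 (1.06, adjusted p = 1.99e-07) and Elf3 (2.18, adjusted p = 2.50e-07) rose, and the ubiquitin ligase scaffold gene Cul3 (−0.87, adjusted p = 2.01e-07) fell. With treatment Grhl2 fell (−0.39, adjusted p = 0.0171) and Cul3 rose (0.32, adjusted p = 0.0271), and Elf3 was at −0.53 (adjusted p = 0.0525) and Klhl3 at 0.33 (adjusted p = 0.107). Against wild type, treated kidneys had 4 regulators higher and 4 lower, beside 32.5% and 32.4% of all genes, with Elf3 at 1.64, Grhl2 at 0.68 and Cul3 at −0.56. Markers of other cells also differed with PBS against wild type, beside 37.7% of all genes that rose and 36.6% that fell. Of 4 distal convoluted tubule markers 3 fell, of 5 thick ascending limb markers 2 fell, of 5 intercalated cell markers 2 rose and 2 fell, and of 6 podocyte markers 3 rose. All 6 immune, 5 fibroblast, 5 urothelial and 10 injured tubule markers rose, with medians of 1.84, 1.28, 2.12 and 2.80, and with treatment 1 of these 26 fell, Krt7 (−0.41, adjusted p = 0.0439), beside 6.66% of all genes. Their part in the claudin levels was not tested. The summed urothelial markers ran from 6.66 to 26.97 CPM in wild type, 8.28 to 152 CPM with PBS and 31.6 to 120 CPM with RGLS4326.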

How the data were processed

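Kidney polyA RNA of 31 mice was sequenced. The authors deposited raw counts per gene, with no normalization, made by trimming with Trim Galore, mapping to GRCm38 with STAR and counting uniquely mapped reads with HTSeq 0.6.1. Groups came from the labels. From the counts, filterByExpr, TMM scaling and a quasi-likelihood fit with 1 coefficient per group to all 31 mice were run in edgeR 4.0.16 (R 4.3.3), with the study's thresholds (adjusted p under 0.05, absolute log2 fold change over 0.5). SE is the absolute log2 fold change over the square root of F. Unassigned and ambiguous reads, 10.8% to 12.9% of the reads counted, were left out. Per-kb levels used exon unions of GENCODE vM21. Intervals are 1.96 standard errors. The procedure was tested on simulated data. The members, lists and tests were chosen with earlier results of these data known. All members were named, with the filtered other claudins, the junction and regulator genes of smallest p, at most 2 genes per marker list and the 2 most alike genes per member; Epcam and Cdh1 were added after their values were seen. Alternatives covered scaling (RLE), filter, DESeq2 1.42.0, mice fitted, index series and replicate block. Counts of wild-type mice 3 and 4 lay closest together, yet beyond counting noise, which does not show that they are 2 animals; both were kept as labelled, and results were also computed with 1 of them left out or both counted as 1. Whether mice shared litters or cages is not given, and the tests judge differences against the spread between these mice as if each were independent. Some listed genes are not reported here. Claudin proteins were not analysed here.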

Additional observations from a re-analysis of the deposited data

How the results depend on the processing

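Across 60 results and 44 alternatives, 735 of 884 values were labelled the same. For differences this means the same direction and side of the adjusted p threshold. For counts it means a move of at most 1.5 times. Of the others, 75 no longer passed, 5 newly passed, 45 counts moved by over 1.5 times and 24 values changed sign. In RGLS4326 against PBS, the 2 claudins past both thresholds became 4 on the adjusted p alone, 1 with no filter on low counts, with the 2 groups alone or with the index series as a covariate, and 0 within each of the 3 index series. Cldn4 was the claudin lost where 1 was left, and Cldn6 the one that stayed. Leaving out 1 mouse at a time, chosen after seeing the data except for RGLS4326 mouse 9, gave 1 or 2, with 13 mice giving 1. The replicate block, which treats same-numbered mice as pairs, also gave 1 claudin and brought all genes called from 327 to 43. Numbers do not pair the mice, since deviations of same-numbered mice had a mean correlation of −0.06 and 2 of 12 matched best with their own number. All genes called numbered 145 without RGLS4326 mouse 9, 210 with the 2 groups alone and 0 within each series, so no claudin could pass there. In RGLS4326 against wild type, the 5 claudins became 0 within index series 2, where their log2 fold changes lay between 0.55 and 1.57. In PBS against wild type, the count of 7 lay between 6 and 9 in the alternatives, setting aside series 3 with its 1 wild-type mouse. It was 7 without wild-type mouse 3 or 4, and counting these 2 as 1, chosen after seeing the data, changed no call of a claudin relative to its markers. Of the values that passed, those that changed sign were Cldn8 in PBS against wild type within index series 3 alone (−0.10, with no test read) and Cldn10 minus thick ascending limb markers with the median over the markers (0.13, adjusted p = 0.332, permutation test). The other sign changes counted were of values that had not passed; marker-relative values within series are given with the results and not counted here. In RGLS4326 against PBS, Cldn1 was at 0.0778 and Cldn8 at 0.0152 within series 1, and Cldn11 at 0.17 and 0.18 within series 1 and 3, 0.0362 with DESeq2, 0.0829 with the replicate block and −0.36 to 0.75 without 1 mouse. In RGLS4326 against wild type, Cldn6 was at −0.0913 within series 1, Cldn8 at −0.45 within series 3 and Cldn11 at 3.32 within series 2, and in PBS against wild type Cldn11 was at 3.62 within series 2. Cldn3 minus principal cell markers was at 0.0230 in RGLS4326 against PBS without RGLS4326 mouse 9. The causes were not tested. RLE scaling, DESeq2 and the other pseudocount changed no call. No fit without a scaling factor per mouse was run. Cldn11, with few counts in most mice, had the largest SE of the 10 in each comparison.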
